A study of Mus musculus with 6 samples.

Results

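The genes examined are 30 genes that mark macrophages of adipose tissue, chosen by name, out of 54356 genes with a row in the summed tables. All 30 passed the filter on low counts, as did 17852 genes in all. They were measured by poly(A) RNA sequencing of whole eWAT (the white fat depot along the epididymis, a visceral depot) from 6 male wild type C57BL/6N mice aged 20 weeks. The control group holds 3 mice (ctrl 5, ctrl 6 and ctrl 10) and the cold group 3 mice (cold 7, cold 12 and cold 16), the numbers being mouse identifiers. Cold mice were kept 1 per cage at 4 °C for 24 h. The labels attach this treatment text to all 6 mice and give a general housing temperature of 22 to 24 °C, so the group rests on the label of each mouse. No transgene or drug was used. Because the tissue was homogenised whole, every value is a mixture of adipocytes, vessels, stroma and immune cells, and fewer macrophages cannot be told apart from less RNA per macrophage.

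Macrophages are the most numerous immune cells of lean fat. They depend on the receptor CSF1R and on the transcription factor PU.1, encoded by Spi1, and take up dying adipocytes and spilled lipid. They also carry Fc receptors that signal through the adaptor FCER1G, while the receptor TREM2 signals through the adaptor TYROBP. Long-lived resident macrophages along vessels are known by TIM4, LYVE1 and folate receptor beta (Timd4, Lyve1, Folr2), whereas lipid-associated macrophages, which collect around stressed adipocytes, are known by TREM2, GPNMB and osteopontin (Trem2, Gpnmb, Spp1). Resistin-like alpha, YM1 and arginase 1 (Retnla, Chil3, Arg1) are induced by interleukin 4 and interleukin 13 in alternatively activated macrophages, a state that has been discussed for cold-exposed fat.

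Total estimated counts per library lay between 19735167 and 28608052. Adipocyte genes were abundant in every library, with a summed level of 8 markers of 22893.4 to 25684.3 CPM in controls and 20227.5 to 20652.4 CPM in the cold (counts relative to the size of each library after TMM normalisation). Of these 8, the leptin gene Lep was called higher (0.61) and the adipsin gene Cfd lower (-0.59) in the cold. Genes of other tissue also differed between the groups. The 9 motile cilium genes found of 10 listed summed to 6.32 to 28.5 CPM in controls and 59.9 to 176.4 CPM in the cold. All 9 had a positive fold change, and 3 passed an adjusted p under 0.05 by edgeR. Genes of the epididymal and duct epithelium summed to 6.88 to 31.1 CPM in controls and 168.1 to 202.2 CPM in the cold, with 2 of 6 tested genes past that threshold, against 2.89% of all genes. All 9 cilium and all 6 tested epithelial genes lacked overlap between the groups, against 23.8% of all genes. By DESeq2 more genes of both lists passed, among them Epcam, Krt8, Dnah9 and Cfap43, but not Foxj1, Dnah5, Hydin or Pax2. Within the epithelial list the epididymal secretory gene Crisp1 stood at 111.8 CPM in cold 7 and at 0 to 0.257 CPM in the other libraries, while Lcn5 and Lcn8 were at 0 or below 0.1 CPM in all 6.

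Compared per transcript length, in the deposited TPM, Retnla was the most abundant of the 30 genes (mean of 6 libraries 834.9 TPM), followed by the lysozyme gene Lyz2 (475.1), the galectin gene Lgals3 (151.1), Tyrobp (93.8) and the protease gene Ctss (78.7). The core receptor genes Csf1r (56.2 TPM) and Cd68 (53.3) and the resident gene Folr2 (57.7) stood in the middle of the order. Lowest were Timd4 (1.43 TPM), Marco (1.46), Spp1 (2.33), Chil3 (3.16), Fcgr1 (3.2) and Arg1 (3.78). Timd4, at 0.401 to 2.83 TPM over the libraries, and Marco, at 0.575 to 4.03 TPM, overlapped and have no order beyond their spread. All 30 genes had reads in all 6 libraries. The resident genes Folr2, Lyve1 and Timd4 held ranks 9, 17 and 30 of 30.

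**Figure D1:**
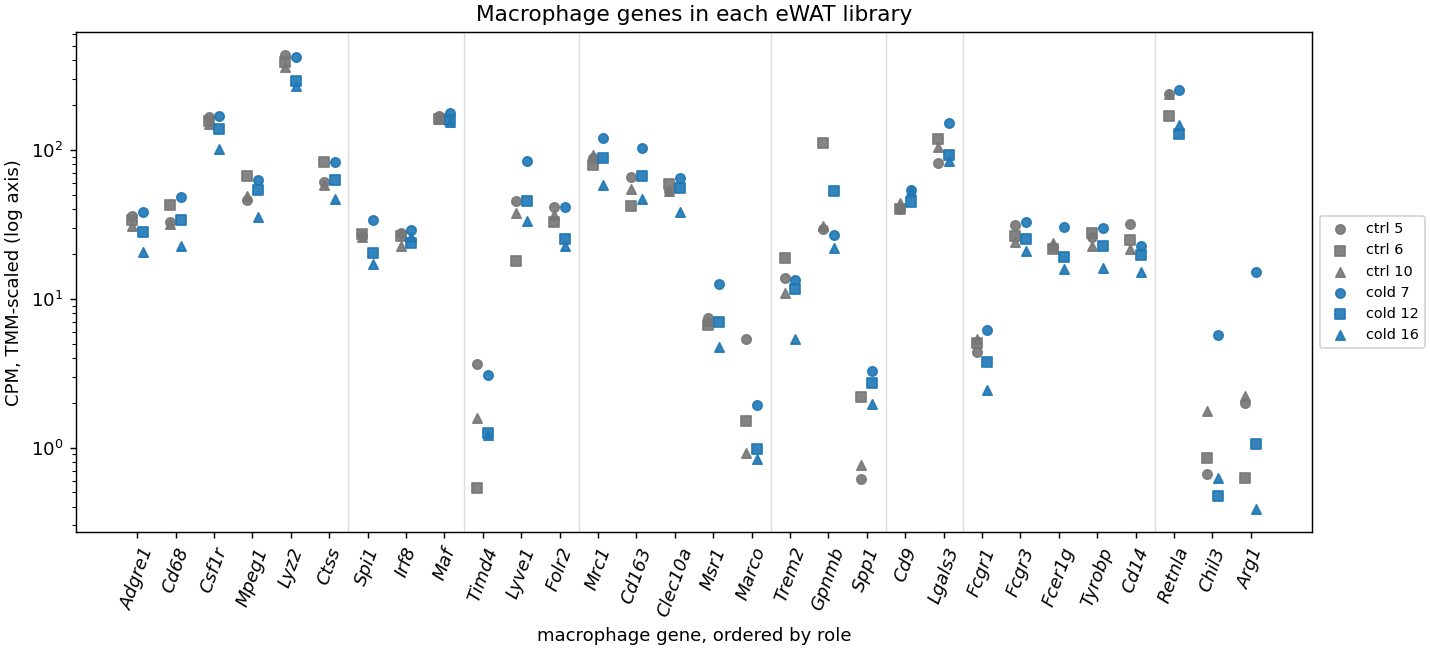
Level of each of the 30 macrophage genes (CPM on a log axis) in the 3 control libraries (grey) and the 3 cold libraries (blue), with a marker shape per mouse and vertical lines between role groups. In 29 of 30 genes cold 7 (blue circle) is the highest cold library, and Cd9 is the only gene without overlap between the groups.

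The first question was whether macrophage transcripts differed between the cold and control groups. None of the 30 genes passed an adjusted p under 0.05 by edgeR's quasi-likelihood test, against 2.89% of all genes tested (2.32% higher and 0.566% lower in the cold). At an unadjusted p under 0.05 there were 3 (Cd9, Spp1 and Cd14), against 17.6% of all genes. DESeq2 called none of them after adjustment, against 6.34% of the genes to which it gave an adjusted p, and 3 at an unadjusted p under 0.05. Of the 30 fold changes 10 were positive and 20 negative, with a median of -0.07 on the log2 scale beside -0.01 over all genes tested. Only 1 gene, Cd9, had no overlap between groups, against 23.8% of all genes. The precision was lower than for the average gene, with a median SE of 0.25 beside 0.15. Changes of the size seen in single members were thus not separable from the spread between mice, which does not show that the groups were alike.

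**Figure D2:**
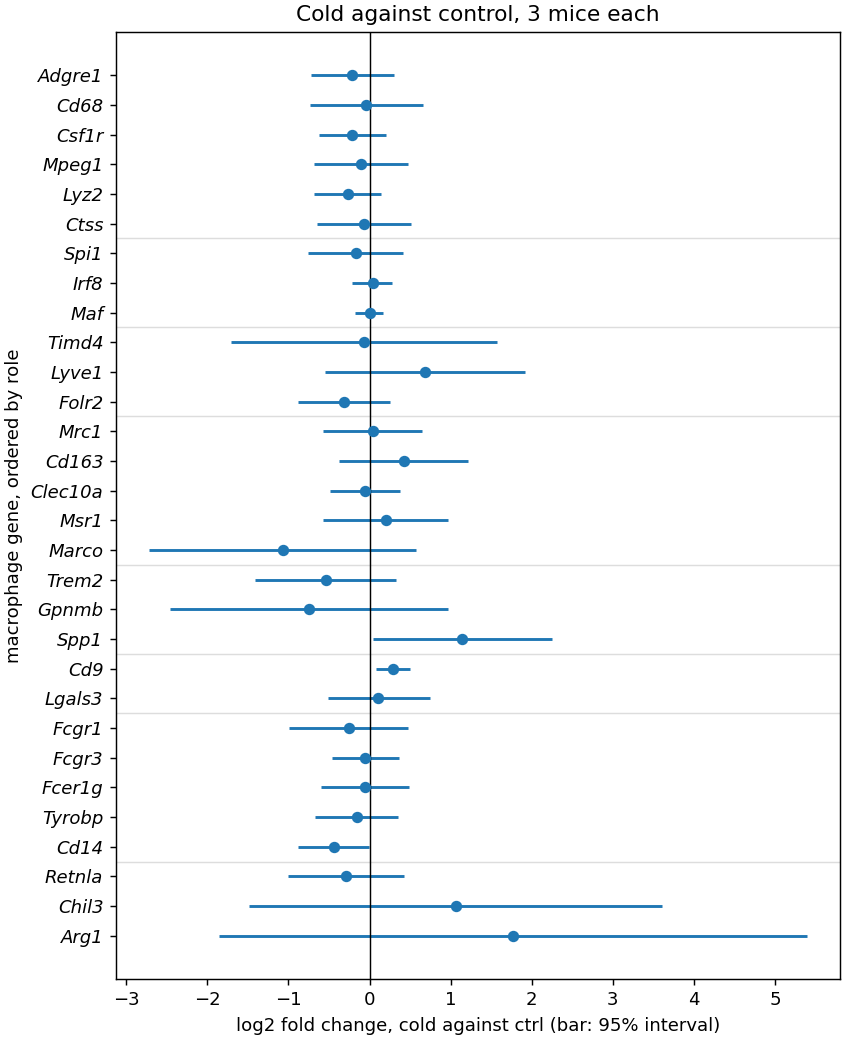
Log2 fold change of cold against ctrl for the 30 genes (points) with its 95% interval (bars) from edgeR's fit, 3 mice per group. Only the intervals of Spp1, Cd9 and Cd14 exclude 0, and they end close to it, at 0.04, 0.08 and -0.01.

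The core identity genes mark macrophages of any state. Lyz2 (chromosome 10, 117277331 to 117282321, GRCm38), which encodes lysozyme and had the smallest p of the 6, stood at 435.3, 391.6 and 359.1 CPM in ctrl 5, ctrl 6 and ctrl 10, and at 423.5, 292.5 and 267.6 CPM in cold 7, cold 12 and cold 16. Cold 7 was thus within the control range and the other cold libraries below it, and the fold change on the log2 scale was -0.27 (SE 0.18, adjusted p = 0.508). Its close paralog Lyz1 was at 24.7 to 39.4 CPM, and reads shared by the pair may be split between them. The growth factor receptor Csf1r, at 150.1 to 167.8 CPM in controls, was at 169.2, 139.5 and 101.5 CPM in cold 7, 12 and 16 (-0.21, adjusted p = 0.611). The adhesion receptor Adgre1, whose product is F4/80, was at 30.7 to 35.9 CPM in controls and at 38.2, 28.2 and 20.5 CPM in the cold. Cd68, Mpeg1 and Ctss, encoding a lysosomal glycoprotein, a pore-forming protein and cathepsin S, had fold changes of -0.04, -0.10 and -0.07. All 6 core genes were negative, and all 6 had the order cold 7, cold 12, cold 16 from high to low.

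Among the transcription factors, Spi1, the gene of PU.1 (chromosome 2, 91082390 to 91115756), was nearly constant in controls at 26.6, 27.4 and 25.9 CPM. In the cold it was at 33.7, 20.3 and 17.1 CPM, so that 1 cold library lay above all controls and the others below (-0.17, SE 0.24, adjusted p = 0.788). Irf8, a factor of monocyte and dendritic cell development, was at 22.7 to 27.7 CPM in controls and 23.9 to 29.1 CPM in the cold (0.04, SE 0.11). Maf, which maintains the resident state and is also expressed outside macrophages, was at 160.5 to 169.9 CPM against 153.7 to 177.2 CPM, the smallest SE of the 30 genes (0.00, SE 0.08, 95% interval -0.18 to 0.17).

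The resident genes did not move as a group. Timd4 (chromosome 11, 46810800 to 46844332), a receptor for phosphatidylserine on dying cells, had 88, 12 and 31 estimated counts in ctrl 5, 6 and 10 and 70, 32 and 35 in cold 7, 12 and 16. Control mice alone spanned a 6.77-fold range in CPM, and the interval of its fold change ran from -1.71 to 1.57 (-0.07, SE 0.69, adjusted p = 0.974). Lyve1 (chromosome 7, 110850607 to 110863239), a hyaluronan receptor, stood at 45.2, 18 and 37.5 CPM in controls and 84.1, 45.3 and 33.2 CPM in the cold, with cold 7 high and ctrl 6 low (0.69, SE 0.49, adjusted p = 0.562). Folr2 (chromosome 7, 101839988 to 101857194) stood at 41.2, 32.7 and 36.6 CPM in controls and 41.3, 25.1 and 22.6 CPM in the cold (-0.32, SE 0.24, adjusted p = 0.574). Lyve1 is also a marker of lymphatic vessels. The 6 lymphatic endothelial markers, none called by edgeR and none at 0, summed to 95.7 to 129.1 CPM in controls and 109.6 to 160.6 CPM in the cold, with cold 7 the highest and ctrl 6 the lowest library, as for Lyve1. Of the 6 markers 5 were positive. Mmrn1 was at 0.91 without overlap between groups (adjusted p = 0.142 by edgeR and 0.0186 by DESeq2). The part of these markers in the Lyve1 values was not tested. The sum of the 3 resident genes was 72.3 ± 19.6 CPM in controls (mean and SD of 3 mice) and 85.7 ± 37.7 CPM after cold, a log2 ratio of 0.24 that was -0.08 when summed from the deposited TPM.

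Lectin and scavenger receptors bind sugars, haemoglobin complexes and modified lipoproteins, and all 5 had the order cold 7, cold 12, cold 16. Cd163, the haemoglobin scavenger receptor, was at 65.9, 41.9 and 54.8 CPM in controls and 103.3, 66.7 and 47.2 CPM in the cold (0.42, SE 0.32). The mannose receptor Mrc1 was at 79.7 to 92.9 CPM in controls and at 120.3, 89.0 and 58.6 CPM in the cold (0.04, SE 0.25). The C-type lectin Clec10a (-0.06) and the class A scavenger receptor Msr1 (0.20) differed little between the group means. Marco, a scavenger receptor of the same class and the lowest p of these 5 genes, had 129, 34 and 18 estimated counts in ctrl 5, 6 and 10 and 44, 25 and 24 in the cold, so that ctrl 5 carried its negative value (-1.07, SE 0.69, adjusted p = 0.508). The lectin Mgl2, a close paralog of Clec10a, was at 32.8 to 56.6 CPM in controls and 28.7 to 45.3 CPM in the cold. Without ctrl 5, Marco turned to 0.03, near no difference.

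The lipid-associated genes also went in different directions. Trem2 (chromosome 17, 48346401 to 48354147), a lipid-sensing receptor that signals through TYROBP, was at 13.9, 18.9 and 11 CPM in controls and 13.3, 11.6 and 5.38 CPM in the cold, with cold 16 the lowest library (-0.54, SE 0.36, adjusted p = 0.53). Gpnmb (chromosome 6, 49036546 to 49070929), a lysosomal and surface glycoprotein, was at 29.6, 110.9 and 30.8 CPM in controls and 27.0, 53.3 and 21.8 CPM in the cold. A single control mouse, ctrl 6, set its negative fold change (-0.75, SE 0.67, adjusted p = 0.661). Spp1 (chromosome 5, 104435118 to 104441050), the gene of osteopontin, had 15, 49 and 15 estimated counts in ctrl 5, 6 and 10 and 75, 69 and 56 in cold 7, 12 and 16. In CPM these were 0.619, 2.19 and 0.770 against 3.28, 2.71 and 1.96, with ctrl 6 reaching into the cold range (1.14, SE 0.48, unadjusted p = 0.044, adjusted p = 0.265). The Spp1 value varied from 0.84 to 1.94 with 1 library left out, the largest without ctrl 6 (adjusted p = 0.104). Osteopontin is also made by epithelia, and the epithelial lists given above were higher in all cold libraries. Their part in the Spp1 values was not tested.

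Cd9 and Lgals3 are raised in lipid-associated macrophages and are expressed by many other cells. The tetraspanin gene Cd9 (chromosome 6, 125460266 to 125494791) was at 40.1, 40.4 and 44.0 CPM in controls and 53.7, 44.8 and 53.2 CPM in the cold. Every cold library lay above every control, by a small margin for cold 12 (0.29, SE 0.09, unadjusted p = 0.0136, adjusted p = 0.142). Its cold order, with cold 16 near cold 7, was unlike that of the core genes, which were lowest in cold 16. Lgals3, the gene of galectin 3, was at 81.9 to 118.1 CPM in controls and 84.6 to 151.8 CPM in the cold (0.11, SE 0.26).

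The Fc receptor genes, the adaptor genes Fcer1g and Tyrobp and the lipopolysaccharide co-receptor gene Cd14 all had negative fold changes. Cd14 (chromosome 18, 36725067 to 36726798) was at 31.6, 24.9 and 21.5 CPM in controls and 22.6, 19.8 and 15.2 CPM in the cold. Cold 7 lay inside the control range and the other cold libraries below it (-0.44, SE 0.19, unadjusted p = 0.0473, adjusted p = 0.276). Tyrobp and Fcer1g, whose products couple receptors to the kinase SYK, were at -0.16 and -0.05. The activating Fc gamma receptors Fcgr1 and Fcgr3 were at -0.25 and -0.05, and the inhibitory paralog Fcgr2b at 0.05. In all 5 of these genes the cold order was 7, 12, 16.

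Alternative activation genes were uneven. Retnla (chromosome 16, 48842551 to 48844461) was at 239.4, 168.2 and 239.7 CPM in controls and 254.0, 128.6 and 148.4 CPM in the cold (-0.29, SE 0.29, adjusted p = 0.697), its groups overlapping through cold 7. Arg1 (chromosome 10, 24915221 to 24927484) had 48, 14 and 43 estimated counts in ctrl 5, 6 and 10 and 346, 27 and 11 in cold 7, 12 and 16. Its level in cold 7 was 6.86 times that of the next highest library, and the fold change of 1.77 had an SE of 1.43 (adjusted p = 0.616) and became -1.16 without cold 7. Chil3 had 16, 19 and 34 estimated counts in the control mice and 131, 12 and 18 in cold 7, 12 and 16, with cold 7 at 3.28 times the next library (1.06, SE 1.04) and a fold change of -0.95 without cold 7. The near-identical Chil4 was at 0.0447 CPM in ctrl 6 and at 0 in the other libraries. In counts, Arg1 and Chil3 therefore show 1 cold mouse apart from all others, not a difference between the groups. In the deposited TPM this did not hold for Chil3, which was at 9.17 in ctrl 10 and 6.77 in cold 7. With a transcript length offset the Chil3 fold change was -0.13. Cold 7 is also the library with Crisp1 RNA, and whether the Arg1, Chil3 and Crisp1 values are linked was not tested.

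The clearest pattern lay within the cold group. In 29 of 30 genes cold 7 was the highest of the cold libraries, against 34.1% of all genes tested, and in 25 of 30 the order was cold 7, cold 12, cold 16, against 18.3%. Cold 7 was also the highest cold library in 8 of 8 stromal progenitor, 5 of 5 mesothelial, 5 of 5 B cell and 5 of 6 lymphatic markers. The same held for 4 of 5 tested mast cell and 2 of 3 tested neutrophil markers. The full order held in 3, 3, 0, 2, 4 and 2 of these, in the same sequence of lists. Cold 16 was the lowest of all 6 libraries in 4 of the 5 mast cell markers. The order was thus not confined to macrophage genes. In other lists cold 7 was highest in 2 of 8 adipocyte, 2 of 7 blood endothelial, 3 of 7 dendritic cell, 1 of 7 T and NK cell and 0 of 9 motile cilium genes. Cold 7 was the highest of all 6 libraries in 23 of 30 genes (16.9% of all genes) and cold 16 the lowest in 21 (18% of all genes). The median of the 30 genes lay 0.30 above the control mean in cold 7, 0.14 below it in cold 12 (a value of -0.14) and 0.54 below it in cold 16 (-0.54), on the log2 scale of CPM + 0.5, while the median over all genes lay between -0.01 and 0.00. All 30 genes were higher in cold 7 than in cold 16, by a median of 0.86. Control mice were closer together, with medians of 0.05, -0.02 and -0.05. The median range between the highest and lowest library was 1.89-fold in the cold and 1.32-fold in controls, beside 1.24-fold and 1.23-fold over all genes. Other library measures ran in an order too. The mitochondrial share of counts was 3.84, 4.59 and 5.70% in cold 7, 12 and 16 and 3.88 to 4.21% in controls, and total estimated counts were 22903050, 25142603 and 28608052 in the cold libraries. Their part in the pattern was not tested. The counts of genes were made after the values had been seen, and the genes share libraries and cells, so they describe these 3 mice and carry no test.

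**Figure D3:**
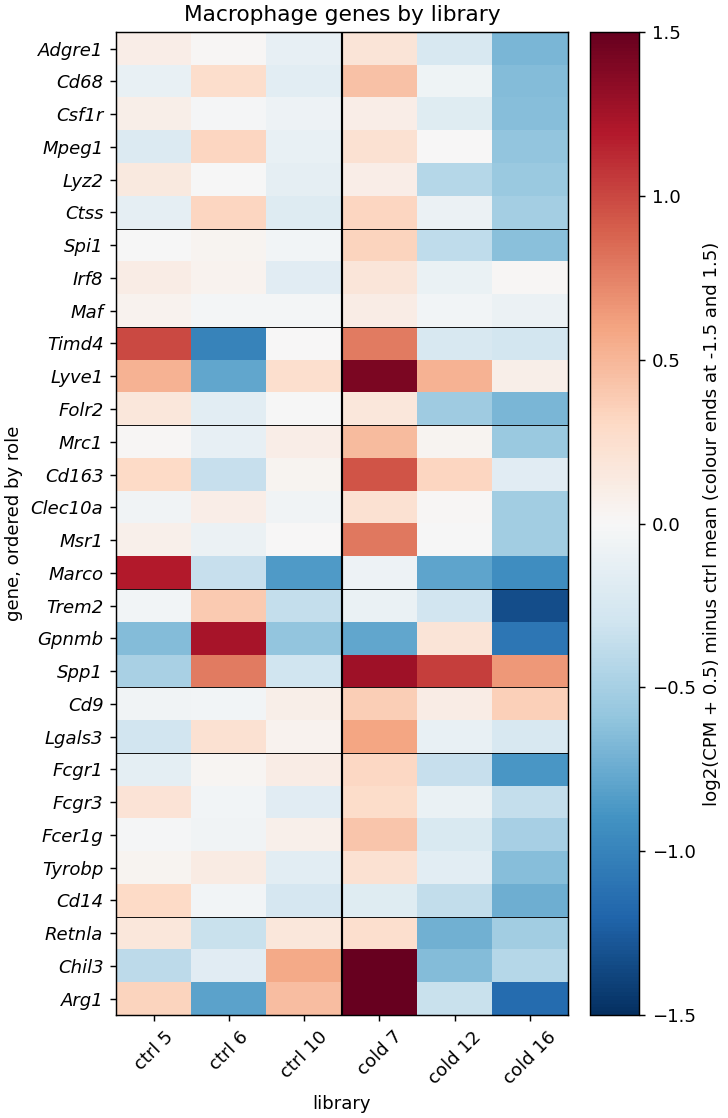
Level of the 30 genes (rows, by role) in each library (columns) as log2(CPM + 0.5) minus the mean of the 3 controls, red above and blue below. The cold 7 column is mostly red and the cold 16 column mostly blue, with medians of 0.30 and -0.54, while Gpnmb in ctrl 6 stands out from the other controls.

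The sum of the 6 core genes shows the same spread. It was 778.9, 774.1 and 679.3 CPM in controls (744.1 ± 56.2) and 825.0, 610.3 and 494.1 CPM in the cold (643.1 ± 167.9, SD over 3 mice). The range was 1.15-fold in controls and 1.67-fold in the cold. Other lists differed between the cold libraries too. Stromal progenitor markers (8 genes, none at 0, none called) summed to 3942.7, 2306.4 and 2275.8 CPM in cold 7, 12 and 16 and to 2278.8 to 3182.7 CPM in controls. Mesothelial markers (5 genes, none at 0, none called) summed to 238.6, 80.0 and 85.4 CPM in the cold and 100.9 to 259.6 CPM in controls. Motile cilium genes had another order, 59.9, 176.4 and 146.4 CPM, and adipocyte markers were nearly even at 20652.4, 20461.3 and 20227.5 CPM. The part of these tissues in the macrophage values was not tested. Without cold 7 the summed core level was -0.43 on the log2 scale (-0.21 with all libraries), and 3 members were called lower in the cold by edgeR, against 0.873% of all genes called lower in that fit and 5.91% called in either direction. These were Folr2 (-0.63, adjusted p = 0.0225), Spi1 (-0.52, adjusted p = 0.0292) and Lyz2 (-0.50, adjusted p = 0.0345). Cold 7 was the highest cold library in 29 of 30 members, so leaving it out had to lower their cold level. The members called in that fit are therefore no separate result, and their share is not comparable with that of all genes.

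**Figure D4:**
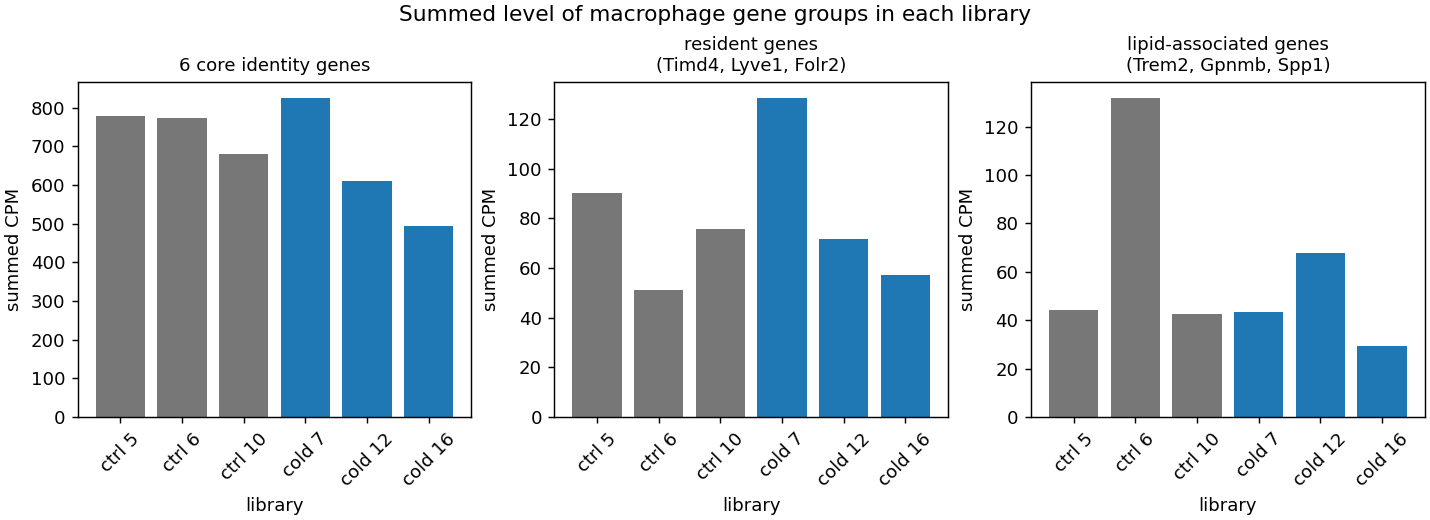
Summed CPM of the 6 core identity genes, the 3 resident genes and the 3 lipid-associated genes in each library, 1 bar per mouse, with controls grey and cold blue and axes that start at 0. Core and resident sums are highest in cold 7 (825.0 and 128.5 CPM), and the lipid-associated sum is highest in ctrl 6 (131.9 CPM).

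Resident and lipid-associated genes were next set against the core sum, which removes only differences that a gene shares with that sum. A gene that does not follow the core sum gets a higher ratio where the sum is low. The core sum is mostly Lyz2 (47.9 to 55.9%). The resident genes equalled 11.6, 6.62 and 11.1% of it in ctrl 5, 6 and 10 and 15.6, 11.7 and 11.5% in cold 7, 12 and 16, so that ctrl 6 was lowest. The lipid-associated genes equalled 5.67, 17.0 and 6.27% in controls and 5.28, 11.1 and 5.90% in the cold, so that ctrl 6 was highest. Within these groups ctrl 6 had the lowest share of Timd4 and Lyve1 and the highest share of Trem2 and Gpnmb, whereas Folr2 was lowest in cold 12 (4.12%, against 4.23% in ctrl 6) and Spp1 highest in cold 12 (0.445%, against 0.283% in ctrl 6). In CPM, ctrl 6 was the highest library for 7 of 13 further lipid-associated genes, against 18.2% of all genes, and also for 5 of 8 adipocyte markers. Among those 7 the macrophage elastase Mmp12 (57.5 CPM in ctrl 6, 18 and 22.6 in the other controls), the integrin Itgax (23.2 against 10.5 and 11.4) and the proton pump subunit Atp6v0d2 (11 against 3.51 and 4.06) are given here after their values were seen, and 6 of the 13, including Ctsd, Cd63 and Fabp5, were highest in other libraries. Fc receptors, adaptors and Cd14 kept a narrow share of 13.6 to 14.8% in all 6 libraries.

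On this scale 4 genes of the 30 had no overlap between groups, each higher in the cold, against 12.6% of all genes set against the same sum (11.9% higher in the cold), so the members' share was near that of all genes. Lyve1 was at 5.80, 2.33 and 5.53% of the core sum in controls and 10.2, 7.42 and 6.71% in the cold. Cd163 was at 8.46, 5.41 and 8.07% against 12.5, 10.9 and 9.56%. Spp1 was at 0.0795, 0.283 and 0.113% against 0.398, 0.445 and 0.396%, and Cd9 at 5.14, 5.22 and 6.48% against 6.51, 7.33 and 10.8%. These ratios were read after the values had been seen and have no test. In CPM, Cd9 was at 53.7 in cold 7 and 53.2 in cold 16, so its higher ratio in cold 16 reflects the lower core sum there. An exact permutation test of 3 mice against 3 could not go below p = 0.10. Spi1, by contrast, kept a share of 3.32 to 4.08% and Csf1r one of 20.2 to 22.9%.

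The promoters of several members are shown as background. Any link between promoter sites and the order of the cold libraries was not tested. PU.1 binds sites with the core GAGGAA, and a composite of GGAA and GAAA on the same strand with any 2 bases between them is bound by PU.1 with interferon regulatory factors such as IRF8. RefSeq promoter windows (GRCm38.p6, the 250 bases before a start site) were matched for 20 of the 30 genes, in 24 windows. GAGGAA, on either strand, was in 10 of the 24 windows (41.7%) and in 23.3% of all 32851 windows of that length. The windows are not independent, as those of Fcgr3 overlap almost fully and each counts as a match. By gene it was in 9 of the 20, and no share by gene over all genes was computed. The longer GAGGAAGT, which contains it, was in 2 windows, of Spp1 and Retnla, and in 2.44% of all windows. Another window of Spp1 (chr5:104435942-104436191) had neither. The composite was in 2 windows, of Timd4 and Folr2, and in 2.3% of all windows. Another window of Folr2 (chr7:101845332-101845581), before a different start site, had no composite. Below are Mrc1 (chr2:14229164-14229413 (plus strand)), which had the most GAGGAA matches, Ctss (chr3:95526536-95526785 (plus strand)), a core gene, Folr2 (chr7:101857191-101857440 (minus strand)) and Timd4 (chr11:46810549-46810798 (plus strand)) for the resident group, and Trem2 (chr17:48346151-48346400 (plus strand)) for the lipid-associated group. Each is written 5′ to 3′ on the strand of its gene. Capitals mark GAGGAA or its reverse complement in Mrc1, Ctss and Trem2, and the composite or its reverse complement in Folr2 and Timd4.
Mrc1: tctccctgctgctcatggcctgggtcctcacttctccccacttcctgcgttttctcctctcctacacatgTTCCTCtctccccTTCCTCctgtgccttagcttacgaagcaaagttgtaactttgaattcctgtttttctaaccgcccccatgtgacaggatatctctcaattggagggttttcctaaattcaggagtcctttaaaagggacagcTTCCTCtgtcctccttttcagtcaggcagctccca
Ctss: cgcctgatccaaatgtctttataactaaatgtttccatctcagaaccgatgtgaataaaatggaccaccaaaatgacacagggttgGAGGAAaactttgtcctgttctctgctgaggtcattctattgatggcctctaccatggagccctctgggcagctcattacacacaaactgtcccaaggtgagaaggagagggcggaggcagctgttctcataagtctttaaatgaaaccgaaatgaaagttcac
Folr2: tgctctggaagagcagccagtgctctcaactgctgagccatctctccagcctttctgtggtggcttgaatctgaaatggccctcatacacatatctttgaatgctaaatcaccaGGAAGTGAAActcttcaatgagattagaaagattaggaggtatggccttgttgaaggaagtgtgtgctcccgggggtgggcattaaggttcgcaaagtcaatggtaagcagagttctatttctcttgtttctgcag
Timd4: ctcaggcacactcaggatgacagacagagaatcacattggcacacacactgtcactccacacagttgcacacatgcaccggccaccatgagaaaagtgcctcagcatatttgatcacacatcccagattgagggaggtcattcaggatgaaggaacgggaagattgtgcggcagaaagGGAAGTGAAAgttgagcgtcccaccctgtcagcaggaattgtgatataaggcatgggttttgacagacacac
Trem2: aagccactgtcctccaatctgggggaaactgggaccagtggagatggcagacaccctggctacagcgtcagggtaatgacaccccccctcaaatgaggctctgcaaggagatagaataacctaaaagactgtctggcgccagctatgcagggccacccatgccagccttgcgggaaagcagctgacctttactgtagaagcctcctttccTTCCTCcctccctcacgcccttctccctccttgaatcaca
Mrc1 had matches that begin at positions -180, -167 and -35 from the start site, Ctss 1 at -164 and Trem2 1 at -40. The matches are letters in a window and were not tested for binding. No mark or factor was measured here.

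Transcript composition differed between libraries for a few members. The deposited TPM of the retained-intron transcript of Mrc1 made up 32.8, 37.8 and 37.8% of the gene's TPM in controls and 31.7, 31.2 and 57.0% in cold 7, 12 and 16. For Cd163 these shares were 42.1, 36.1 and 32.5% in controls and 31.1, 34.3 and 52.7% in the cold. Cold 16, the library with the lowest macrophage sum, thus had the largest share in both genes. Other members differed. The retained-intron share of Clec10a was also largest in cold 16 (17.6%). Those of Irf8 (11.7%) and Cd14 (19.9%) were largest in ctrl 10, and that of Fcgr3 (14.8%) in cold 7. Chil3 in ctrl 10 rested on other transcripts, as its main coding transcript held 21.1% of TPM there and 100% in the other libraries. Members such as Lyz2, Mpeg1, Timd4 and Retnla have a single annotated transcript. Transcript shares come from Salmon's division of reads and were not tested.

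Further genes of macrophage biology, from lists drawn up by role, held 2 calls among 75 genes tested (2.67%), near the 2.89% of all genes. The fractalkine receptor gene Cx3cr1 (chromosome 9, 119901616 to 120069879), found on monocytes and some macrophages, rose from 1.94, 1.39 and 1.90 CPM in controls to 4.11, 4.40 and 3.60 CPM in the cold (1.21, SE 0.23, adjusted p = 0.0367). It was the only called gene among 14 further core macrophage genes (7 positive, 7 negative, median 0.00), where Ms4a7 was at 0.44 and the oxidase subunit gene Cybb at -0.32. Its call was lost with protein-coding transcripts only (adjusted p = 0.053) and without ctrl 6, ctrl 10, cold 12 or cold 16 (0.119, 0.127, 0.15 and 0.0776). The fold change of Cx3cr1 ran from 1.08 to 1.31 with 1 library left out, and its adjusted p by DESeq2 was 0.00298. The TAM receptor ligand gene Gas6 (chromosome 8, 13465374 to 13494490), made by many cell types, fell from 436.6, 390.8 and 478.1 CPM to 308.5, 225.4 and 240.6 CPM (-0.75, SE 0.13, adjusted p = 0.033). It was the only called gene among 12 further resident genes (5 positive, 7 negative, median -0.07), with Mgl2 at -0.34 and the lectin Cd209f at -0.27. Its call was lost without ctrl 5, ctrl 6, ctrl 10, cold 12 or cold 16 (adjusted p = 0.0678, 0.0996, 0.138, 0.14 and 0.0901). The fold change of Gas6 ran from -0.90 to -0.65 with 1 library left out, and its adjusted p by DESeq2 was 3.49e-06. Without ctrl 6, ctrl 10 or cold 12 edgeR called 0 genes of the whole table, and 3 without cold 16. Losing a call in those fits is therefore not particular to Cx3cr1 or Gas6.

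No gene of the other lists of macrophage biology passed by edgeR, and by DESeq2 only Fgr did. Of 13 further lipid-associated genes, several shared with adipocytes, 5 were positive and 8 negative (median -0.05), with the fatty acid carrier Fabp5 at 0.27, the protease Ctsd at 0.23 and Itgax at -0.55. Of 8 monocyte genes 2 were positive and 6 negative (median -0.16), with Itgal at -0.26, Ly6c2 at -0.14 and Plac8 at 0.20. Of the CSF1 receptor ligands and colony-stimulating factor genes 4 of 6 were tested (median -0.19), with the ligand Il34 at 0.34 and the common beta chain gene Csf2rb at -0.30 and the GM-CSF receptor alpha chain gene Csf2ra at -0.18, and Csf2 was at 0 in all libraries. In the type 2 cytokine axis 7 of 9 were tested (median -0.04), with the interleukin 33 receptor Il1rl1 at -0.58, Il13ra1 at 0.38 and Gata3 at -0.25. Among inflammatory cytokine genes 8 of 13 were tested (median -0.21), with Tnf at -0.99, Nos2 at -0.48 and Cxcl1 at -0.58, and Tnf was at 0.314 to 0.908 CPM. Of 9 genes of ITAM and CSF1R signalling 5 were positive (median 0.04), with the kinases Fgr at 0.82 (adjusted p = 0.0969), Lyn at -0.08 and Hcst, an adaptor, at 0.37. The adjusted p of Fgr by DESeq2 was 0.0354, where 6.34% of genes passed. Its groups did not overlap, as for 23.8% of all genes. Cold 7 was the highest cold library in 12 of 14 further core, 12 of 12 further resident, 7 of 13 further lipid-associated, 4 of 8 monocyte, 3 of 4 colony-stimulating factor, 5 of 7 type 2, 7 of 8 inflammatory and 9 of 9 signalling genes, against 34.1% of all genes. The order cold 7, cold 12, cold 16 held in 12, 10, 3, 3, 2, 5, 6 and 7 of them, in the same sequence of lists, against 18.3% of all genes.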

How the data were processed

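Poly(A) RNA-seq libraries of eWAT from 6 mice (3 ctrl, 3 cold) were analysed. Per the labels' protocols, strand-specific paired-end libraries of 50 nt were made from column-isolated RNA. Per the submitters' processing notes, the tools included Salmon, cutadapt and bcl2fastq, with the build GRCm38, and the sources used give no versions. The authors deposited 1 table per library with 140658 transcripts, holding estimated counts and TPM, per the file headers.

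Identifiers were joined to GENCODE M21 (140137 matched, 521 with 0.124 to 0.394% of counts left out). Estimated counts were summed per gene and rounded. In R 4.3.3 with edgeR 4.0.16, genes passing filterByExpr (minimum count 10, minimum total 15) were scaled by TMM and tested with glmQLFit (robust) and glmQLFTest, cold against ctrl, two-sided, with no covariate and Benjamini-Hochberg adjustment over all 17852 genes. SEs come from the quasi-likelihood F statistic. Deposited TPM values served for levels between genes and transcript shares. Libraries of a group came from separate mice and differed by more than counting noise (chi-square over its degrees of freedom at least 12.2). Alternatives included RLE scaling, no filter, a length offset, coding transcripts only, DESeq2 1.42.0 and leaving out libraries.

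The members and lists were chosen with earlier results of these data known. All 30 members were reported, in full the resident and lipid-associated genes and the member with the smallest p per role, and up to 3 genes per further list plus any called. Mmp12, Atp6v0d2 and the other genes given beside a library that stood apart were named after their values were seen. Dnai1 matched no symbol.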

Additional observations from a re-analysis of the deposited data

How the results depend on the processing

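The number of genes called over all genes was 516 and moved to 924 with no low-count filter, 306 with protein-coding transcripts only and 1418 with DESeq2. It ran from 0 to 1090 with 1 library left out, the highest without cold 7, and was 0 by edgeR without ctrl 6, ctrl 10 or cold 12 (where 3071, 2835 and 2546 genes had an unadjusted p under 0.05), and 3 without cold 16. Without ctrl 5 and cold 7 together, a choice made after the data were seen, it was 1230. The number of members called was 0 under every setting with all 6 libraries and ran from 0 to 3 with 1 library left out, the 3 appearing without cold 7. It was 1 without ctrl 5 and cold 7 together (Folr2 at -0.53, adjusted p = 0.0384). The summed log2 ratio with 1 library left out ran from -0.43 to -0.05 for core genes, -0.17 to 0.47 for resident genes and -1.0 to 0.11 for lipid-associated genes, and otherwise moved by less than the spread between mice.

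Of 360 member values under alternatives, 44 changed sign, in 19 genes, 33 of them with 1 library left out. Members whose sign changed then had log2 fold changes of: Maf -0.07 to 0.03, Timd4 -0.64 to 0.81, Marco -1.52 to 0.03, Lgals3 -0.20 to 0.27, Fcgr3 -0.24 to 0.09, Cd68 -0.35 to 0.20, Mpeg1 -0.29 to 0.10, Ctss -0.30 to 0.12, Mrc1 -0.24 to 0.27, Clec10a -0.24 to 0.12, Gpnmb -1.21 to 0.18, Irf8 -0.04 to 0.12, Msr1 -0.27 to 0.47, Chil3 -0.95 to 1.59, Arg1 -1.16 to 2.33, Fcer1g -0.37 to 0.13, Spi1 -0.52 to 0.02, Fcgr1 -0.67 to 0.02, Tyrobp -0.40 to 0.04. Maf stood at 0.00 with RLE size factors, protein-coding transcripts only and DESeq2, on the other side of 0. With the length offset Fcgr1 was 0.22 and Chil3 -0.13. Without ctrl 5 and cold 7 together Timd4 was 0.24, Mrc1 -0.22, Msr1 -0.21, Lgals3 -0.32, Chil3 -1.21 and Arg1 -0.96. Apart from the effect of leaving out named libraries, the cause was not tested. No paired analysis was possible because the mouse numbers differ between the groups. Timd4, Marco, Spp1, Chil3 and Arg1 rest on as few as 11 to 18 estimated counts in a library, which limits their precision.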

Other observations

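Some genes of other myeloid cells were high in cold 7 and others were not, all named after their values were seen. The integrin subunit gene Itgam, shared by macrophages and neutrophils, was at 61.8 CPM in cold 7, at 22.1 and 19.4 CPM in the other cold libraries and at 28.5 to 38.4 CPM in controls. The lactoferrin gene Ltf, known from neutrophil granules and secretory epithelia, was at 10.5 CPM in cold 7, at 0.157 and 0.0698 CPM in the other cold libraries and at 0 in controls. The calgranulin genes S100a8 and S100a9, abundant in neutrophils, did not follow cold 7 alone. S100a8 was at 1.36, 1.69 and 1.57 CPM in cold 7, 12 and 16 and at 2.73 CPM in ctrl 6, and S100a9 was at 1.27, 0.669 and 0.524 CPM in the cold and 0.0826 to 0.205 CPM in controls (2.37, adjusted p = 0.0615). The neutrophil genes Ngp, Mmp8 and Retnlg were at 0 or below 0.4 CPM in every library. The monocyte chemokine gene Ccl2 was at 16.8 CPM in cold 7, at 2.83 and 3.74 CPM in cold 12 and cold 16, and at 3.71 to 12.1 CPM in controls, so that cold 7 was 1.39 times the next library.

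B cell markers (5 genes, none called, none at 0) summed to 15.6, 6.53 and 9.29 CPM in ctrl 5, 6 and 10 and to 12.5, 4.36 and 6.04 CPM in cold 7, 12 and 16. T and NK cell markers (7 genes, none called, none at 0) were more even, at 9.19 to 10.9 CPM in controls and 7.40 to 10.3 CPM in the cold. Dendritic cell markers (7 genes, none called, none at 0) summed to 41.7 to 56.3 CPM in controls and 34.5 to 41.6 CPM in the cold, and mast cell markers (6 genes, 5 tested, none called) to 35.7 to 59.8 CPM and 33.6 to 49.0 CPM. The mast cell sum joins genes of opposite order. Kit was at 17, 24.3 and 27.5 CPM in cold 7, 12 and 16. Mcpt4 was at 8.93, 4.48 and 1.5 CPM and Tpsb2 at 12.3, 5.78 and 2.23 CPM, and Cma1 and Cpa3 fell in the same order.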
